A study of Pyrus pyrifolia with 6 samples.

Results

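The UDP-glycosyltransferase genes of pear fruit skin were taken from the annotation in the deposited table, as all genes whose description holds the name UDP-glycosyltransferase. The rule found 104 of the 42933 listed genes, 103 of them protein-coding and 1 a transcribed pseudogene. A family number stood in the description of 100 of them, and these fell into 19 families. The other 4 were 3 TURAN-like genes, named after an Arabidopsis protein needed for pollen tube reception, and 1 gene described as UDP-glycosyltransferase 13-like.

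The 6 libraries were made from the skin of Pyrus pyrifolia cultivar Cuiguan, a sand pear whose skin turns corky in patches. Of these, 3 came from fruit that stayed uncovered and 3 from fruit in paper bags, a single-layer white bag from day 20 after full bloom and a double-layer yellow-white bag from day 40. All fruit came from 1 orchard and was picked on day 95, and the replicates are called biological without the number of fruits or trees behind each being given, so p-values measure the spread between these samples. Peel is a mixed tissue, and fewer cells of a type cannot be told apart from less RNA per cell.

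UDP-glycosyltransferases of plants move a sugar from a UDP-sugar onto a small molecule such as a flavonoid, a phenolic acid, a monolignol or a hormone. The added sugar makes the acceptor more soluble and often stores, inactivates or detoxifies it. Families are numbered by sequence likeness, and a family number alone does not fix the acceptor. Members often sit side by side in the genome as tandem copies.

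Of the 104 genes, 22 had no read in any library and a further 22 had reads but too few for the test, with at most 14 reads in any 1 library. The remaining 60 were tested with edgeR's quasi-likelihood test on raw counts, adjusted over all 25139 genes tested. Of these 60, 6 (10%) differed at an adjusted p below 0.05, with 3 higher and 3 lower in bagged skin. Over all genes tested, 2.67% were called (0.971% higher and 1.69% lower). Of the 6, LOC103942718 met the filter on low counts in 0 untreated and 3 bagged libraries, and LOC103927456 in 3 and 1. A difference of some size was thus built into the testing of both, and the count of 6 rests in part on it. Depth ran from 15764049 to 19546285 reads per library.

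The 3 genes that rose were a UGT89A2-like gene, a UGT87A1-like gene and a UGT76F1-like gene. The 3 that fell were a UGT86A1-like gene, another UGT87A1-like gene and the gene annotated UGT71K2. Only the UGT89A2-like gene kept its call whichever single library was left out. The number that rose was 1 without bagged replicate 1, 2 or 3 or untreated replicate 1 or 2, and 2 without untreated replicate 3. Of the 3 genes that fell, 0 passed without bagged replicate 1, 1 without bagged replicate 2 or 3 or untreated replicate 1 or 2, and 2 without untreated replicate 3. Untreated replicate 3 lay nearer to the bagged libraries than the other untreated ones did on the first principal component of all tested genes (-24.0, against -52.0 and -59.8, with bagged libraries between 40.1 and 50.3).

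Summed over all 104 genes, untreated and bagged libraries overlapped. The reads of these genes made up 0.0707% to 0.0732% of an untreated library and 0.0703% to 0.0761% of a bagged one. Summed FPKM (reads scaled by gene length and library depth) was 413 ± 13.8 in untreated and 436 ± 16.6 in bagged skin (SD, n = 3). The median log2 fold change of the 60 tested genes was -0.09, against -0.01 for all genes. Changes within 0.5 on the log2 scale were seen for 40 of the 60, or 66.7%, against 82.1% of all genes, and changes of at least 1 for 9 of them, or 15%, against 7.12% of all genes. The median SE was 0.24 on the log2 scale for these 60 genes and 0.17 for all genes tested. In 8 of the 60, fewer than 2 libraries of 1 group lay over the level of the filter on low counts. The part of noise and of this filter in these shares was not tested. Groups that did not overlap in CPM (counts scaled by library depth and TMM factors) were found for 20 of the 60, or 33.3%, with bagged skin above in 8 and below in 12. Of all genes, 21.7% had such groups, with bagged skin above in 10.7% and below in 11%.

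**Figure D1:**
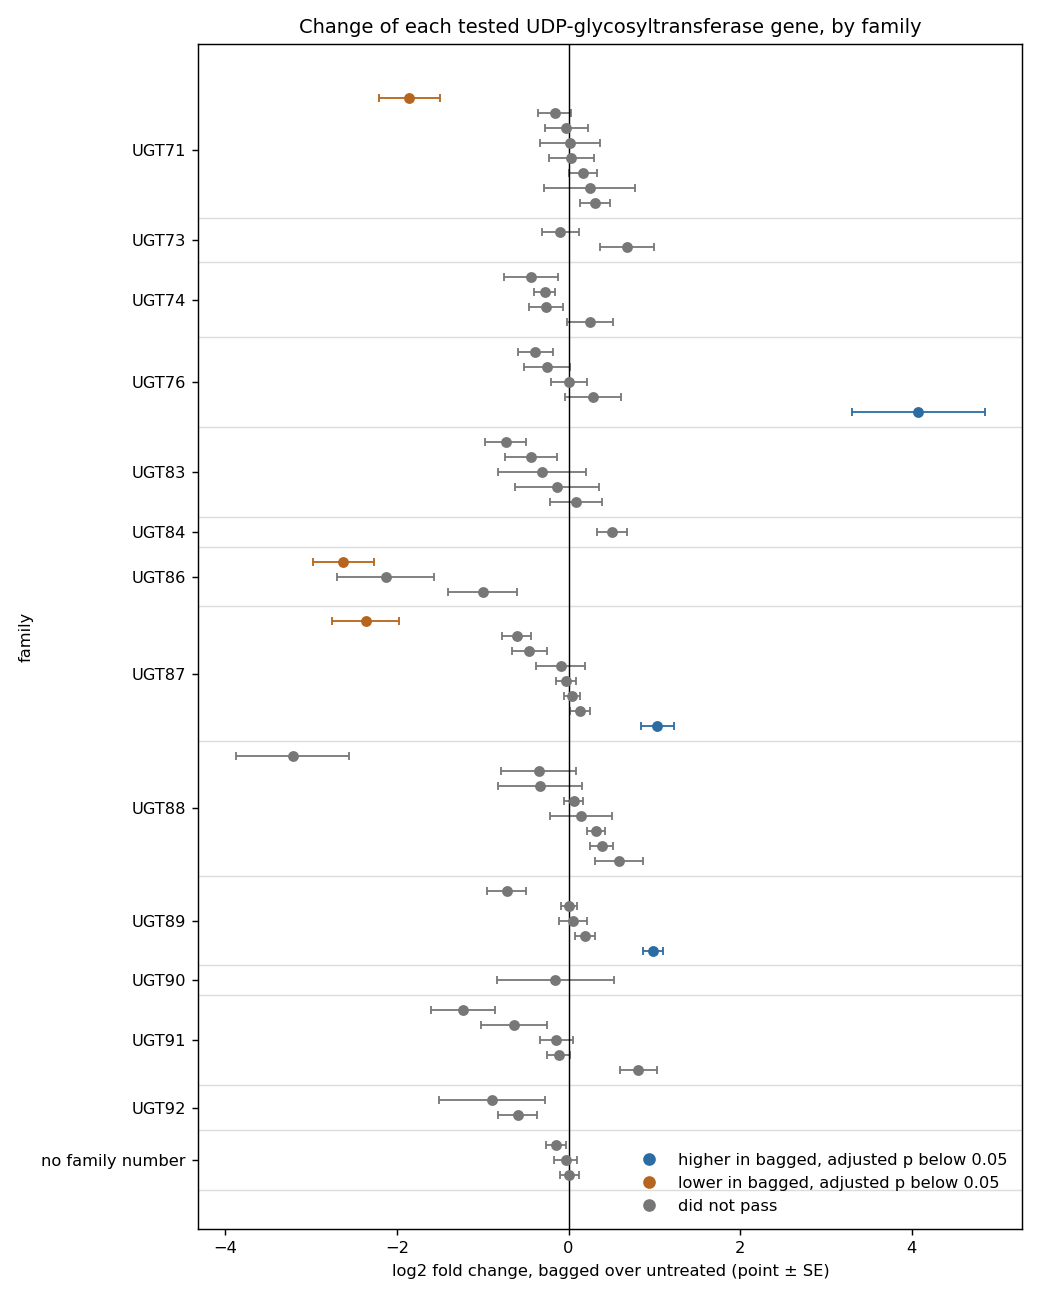
Log2 fold change (bagged over untreated, point ± SE) of each of the 60 tested genes on the x axis, grouped by family on the y axis, with the 3 genes called higher in blue and the 3 called lower in orange. Of the 60 points 40 lie within 0.5 of 0, and the UGT87 family holds 1 called gene on each side.

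Levels per length were led by a few genes. The highest was LOC103964343, described as UGT88A1-like, with 43.8 ± 5.75 FPKM in untreated and 54.8 ± 0.942 FPKM in bagged skin (SD, n = 3). It was followed by the UGT89A2-like gene LOC103949185 (35.3 ± 2.33 and 35.7 ± 3.08 FPKM), whose span on the same strand lies inside that of LOC103946570, so the reads of these overlapping genes may be mixed. The UGT71A16-like gene LOC103942188 came next with 24.1 ± 3.57 and 29.9 ± 6.66 FPKM. The other genes among the 6 highest were the UGT73D1-like LOC103955597, the UGT87A1-like LOC103958959 and the UGT71K2-like LOC103960757, with means over all libraries of 19.2, 17.5 and 17.4 FPKM. None of these 6 passed the test, with log2 fold changes from 0.01 to 0.68 and adjusted p from 0.188 to 0.979 (edgeR). In all, 16 genes had a mean of at least 10 FPKM, 30 lay between 1 and 10, and 36 had reads but a mean under 1. The top 5 genes held 35% of the summed FPKM.

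In LOC103955597, 1 library stood apart. The gene had 422, 535 and 523 reads in untreated replicates 1 to 3 and 566, 512 and 1356 reads in bagged replicates 1 to 3. Bagged replicate 3 was the highest of the 6, the groups overlapped, and the log2 fold change of 0.68 ± 0.32 (SE) did not pass (adjusted p = 0.35, edgeR).

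By family, UGT87, UGT88, UGT89 and UGT71 held most of the signal, with 71.4 ± 4.26, 65.8 ± 6.35, 64.4 ± 0.718 and 54.5 ± 5.62 FPKM in untreated skin and 70.9 ± 2.95, 77.8 ± 2.40, 73.6 ± 4.28 and 61.3 ± 12.7 FPKM in bagged skin (SD, n = 3). In UGT87, LOC103945467 and LOC103945459 (means of 13.2 and 13.0 FPKM in untreated skin) overlap on the same strand, so their reads may be mixed. Bagged libraries were all above untreated ones for UGT88 (60.9 to 73.0 FPKM in untreated, 75.5 to 80.3 in bagged) and for UGT89 (63.6 to 65.0 in untreated, 68.6 to 76.2 in bagged). Most of each shift lay in 1 gene. The mean of LOC103964343 (UGT88, not called) went from 43.8 to 54.8 FPKM, and that of LOC103946590 (UGT89) from 8.58 to 17.1 FPKM. Bagged libraries were all below untreated ones for UGT83 (6.87 to 7.41 in untreated, 5.51 to 5.82 in bagged) and for UGT86 (3.43 to 5.68 in untreated, 1.02 to 1.53 in bagged). The summed UGT84 level, which is that of 1 gene, was 6.38 to 10.5 FPKM in untreated and 11.1 to 12.4 FPKM in bagged skin. These sums are descriptions and were not tested.

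**Figure D2:**
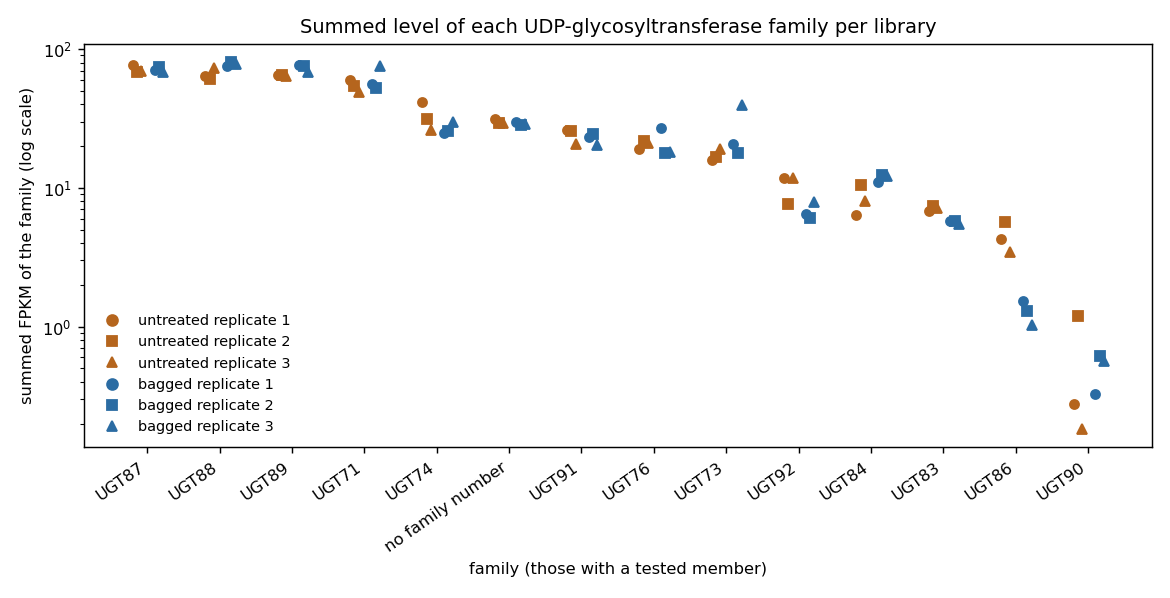
Summed FPKM of each family with a tested member (y axis, log scale) in the 3 untreated (orange) and 3 bagged (blue) libraries, 1 point per library, families ordered by their untreated mean on the x axis. The UGT86 groups do not overlap, with 3.43 to 5.68 FPKM in untreated and 1.02 to 1.53 in bagged skin.

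The called gene that passed in all 17 alternatives tried was LOC103946590, a UGT89A2-like gene on scaffold NW_008988040.1 from 2395799 to 2397589. In Arabidopsis UGT89A2 acts on dihydroxybenzoic acids, which are relatives of salicylic acid. Read counts were 240, 297 and 281 in untreated replicates 1 to 3 and 536, 492 and 598 in bagged replicates 1 to 3, so the groups did not overlap. Its level went from 15.5 ± 1.79 to 30.6 ± 2.22 CPM (SD, n = 3). This is 0.99 ± 0.12 (SE) on the log2 scale (edgeR adjusted p = 0.0103). Its neighbours on the same strand did not pass. LOC103946570, which ends 675 bases before it, had a log2 fold change of 0.05 ± 0.17, and LOC103949185 one of 0.01 ± 0.09 (adjusted p = 0.923 and 0.979, edgeR). The 2 further UGT89 genes were LOC103951676 (0.19 ± 0.12) and the UGT89B2 gene LOC103938094 (-0.72 ± 0.23), and neither passed.

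Within 1 array of UGT87A1-like genes, 1 gene fell and 1 rose. Arabidopsis UGT87A2, the best studied member of this family, affects flowering time. Scaffold NW_008988208.1 held 7 such genes over 99.7 kb, of which LOC103958953 had no read. LOC103958957 (216557 to 224371) had 67, 134 and 63 reads in untreated and 10, 24 and 16 in bagged replicates 1 to 3. It fell from 4.87 ± 1.69 to 0.939 ± 0.394 CPM (SD, n = 3). This is -2.37 ± 0.39 on the log2 scale (edgeR adjusted p = 0.0237). LOC103958958 (269079 to 271325), on the same strand, had 148, 129 and 182 reads in untreated and 297, 320 and 336 in bagged replicates. It rose from 8.80 ± 2.37 to 18.0 ± 0.369 CPM. This is 1.03 ± 0.19 on the log2 scale (edgeR adjusted p = 0.0384). In neither gene did the groups overlap.

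LOC103958957 missed the threshold when bagged replicate 1 or 3 or untreated replicate 1 or 2 was left out (adjusted p 0.0541 to 0.0867, edgeR), and LOC103958958 when any library but untreated replicate 3 was (0.0682 to 0.119). Their neighbours in the array did not pass. LOC103958959, the gene with the highest level there, had 17.2 ± 1.40 FPKM in untreated and 17.8 ± 0.483 FPKM in bagged skin. LOC103958954 had a log2 fold change of -0.60 ± 0.17 (adjusted p = 0.13, edgeR) with groups that did not overlap, and LOC103959011 one of -0.46 ± 0.21. Within the summed FPKM of the array, the share of LOC103958958 was 9.45% to 15.95% in untreated and 25.7% to 27.6% in bagged libraries, while that of LOC103958957 was 5.26% to 9.75% in untreated and 0.860% to 1.92% in bagged libraries. The sum over the whole UGT87 family was 71.4 FPKM in untreated and 70.9 FPKM in bagged skin. That sum also holds LOC103945467 and LOC103945459 from another scaffold, so it does not give the level of the array alone.

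**Figure D3:**
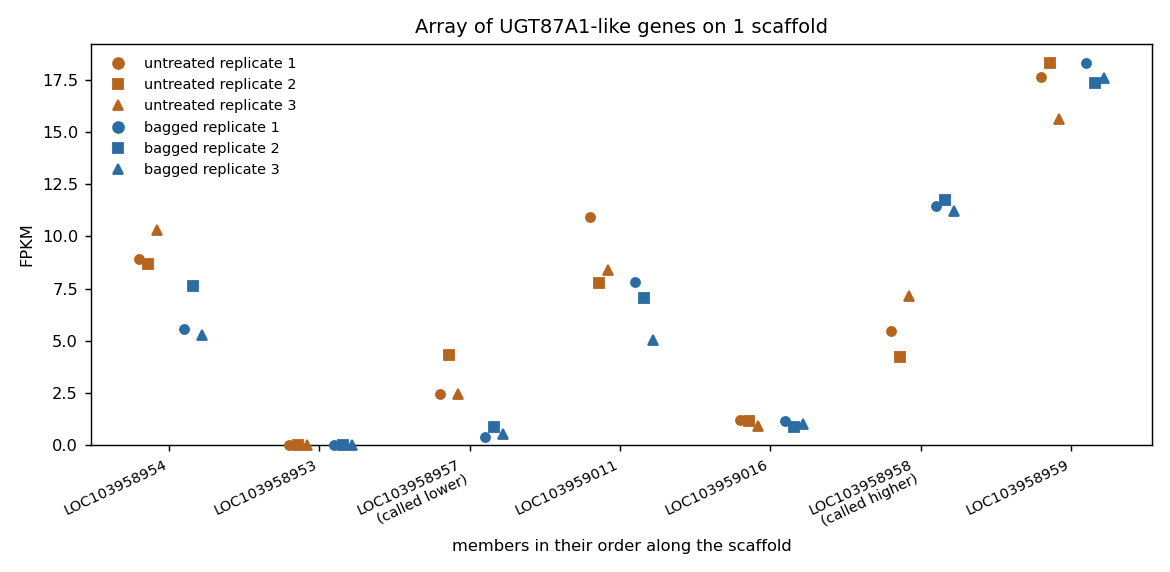
FPKM (y axis) of the 7 UGT87A1-like genes of 1 scaffold in their order along it (x axis), with 1 point per library, untreated in orange and bagged in blue. LOC103958957 lies lower and LOC103958958 higher in all 3 bagged libraries, and the neighbouring LOC103958959 lies between 15.6 and 18.3 FPKM in all 6.

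In the UGT86 family 1 gene of the 3 tested fell, a UGT86A1-like gene. LOC103927456 (scaffold NW_008988424.1, 262700 to 264467) had 62, 85 and 36 reads in untreated and 7, 10 and 12 in bagged replicates 1 to 3. It fell from 3.38 ± 1.06 to 0.541 ± 0.106 CPM (SD, n = 3). This is -2.63 ± 0.36 on the log2 scale (edgeR adjusted p = 0.0138). The groups did not overlap, and the gene missed the threshold when bagged replicate 1 (adjusted p = 0.0618) or 2 (0.0529) was left out. The array on scaffold NW_008988331.1 held the other tested genes of the family. There LOC103965475 had 11, 35 and 14 reads in untreated and 6, 4 and 3 in bagged replicates (log2 fold change -2.13 ± 0.56, adjusted p = 0.109, edgeR), and LOC103965476 had 32, 48 and 31 against 25, 19 and 10 reads (adjusted p = 0.278). Neither passed, and in both the groups did not overlap once scaled. In LOC103965475 the filter on low counts was met by 3 untreated and 0 bagged libraries, and in LOC103927456 by 3 and 1, so both were tested through the untreated group and a difference of some size was built into that.

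The other gene in the array of LOC103927456, LOC103927475, lay under the filter with 33 reads in untreated and 7 in bagged libraries in all. This is a ratio of 4.90 untreated over bagged with an exact 95% interval of 2.13 to 13.1, which covers counting error only. Of the other UGT86 genes, LOC103965477 had 4 and 9 reads, LOC103965493 (described as UGT86A2-like) 5 and 2 reads, and LOC103964836 none.

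UGT71 enzymes include apple and pear proteins that add glucose to phloretin, the parent of the dihydrochalcones typical of these fruits. LOC103960756, annotated UGT71K2 (scaffold NW_008988237.1, 342327 to 344331), had 30, 50 and 30 reads in untreated and 6, 12 and 12 in bagged replicates 1 to 3. It fell from 2.05 ± 0.435 to 0.559 ± 0.172 CPM (SD, n = 3). This is -1.86 ± 0.36 on the log2 scale (edgeR adjusted p = 0.0419). The groups did not overlap, but the call was lost without any 1 of the 6 libraries (0.0789 to 0.135). Its relatives in the array did not pass. LOC103960757, described as UGT71K2-like and 5337 bases away, had 26.8 ± 2.14 CPM in untreated and 30.2 ± 6.83 CPM in bagged skin (0.17 ± 0.16), and the UGT71K1-like genes LOC103960755 and LOC103960758 had log2 fold changes of -0.16 ± 0.20 and 0.02 ± 0.35. The fallen gene made up 4.01% to 6.05% of the summed FPKM of this array in untreated and 0.958% to 1.90% in bagged libraries. The remaining 4 tested UGT71 genes, LOC103942188 among them, had log2 fold changes from -0.03 to 0.31 and did not pass.

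LOC103942718, a UGT76F1-like gene (scaffold NW_008988057.1, 989118 to 991256), had few reads in untreated skin and rose. Arabidopsis UGT76F1 glucosylates indole-3-pyruvic acid, a precursor of auxin, and other UGT76 enzymes act on cytokinins. It had 0, 2 and 2 reads in untreated and 10, 26 and 39 in bagged replicates 1 to 3. The sums of 4 and 75 reads give a ratio of 18.1 bagged over untreated at equal depth, with an exact 95% interval of 6.77 to 68.0 for counting error. The edgeR log2 fold change was 4.08 ± 0.78 with an adjusted p of 0.0407, and the call was lost without any 1 of the 6 libraries (0.0546 to 0.116). The gene passed the filter on low counts through the bagged group alone, so a difference of some size was built into its being tested.

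No other tested UGT76F1-like gene passed. An array of 7 such genes over 66.7 kb on scaffold NW_008988054.1 had 4 tested members, with log2 fold changes from -0.39 to 0.28 and none called. Its most abundant gene, LOC103936086, had 14.2 ± 1.12 FPKM in untreated and 14.4 ± 4.58 FPKM in bagged skin. LOC103936060, at the far end of the array, had 2, 3 and 5 reads in untreated and none in bagged libraries. With the bagged group set to a floor of 3 reads, the ratio was 3.46 untreated over bagged at equal depth. That ratio leaves out the counting error of the untreated reads, and the gene was not tested. The spans of LOC103936106 and LOC103936116 overlap on 1 strand, so their reads may be mixed.

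**Figure D4:**
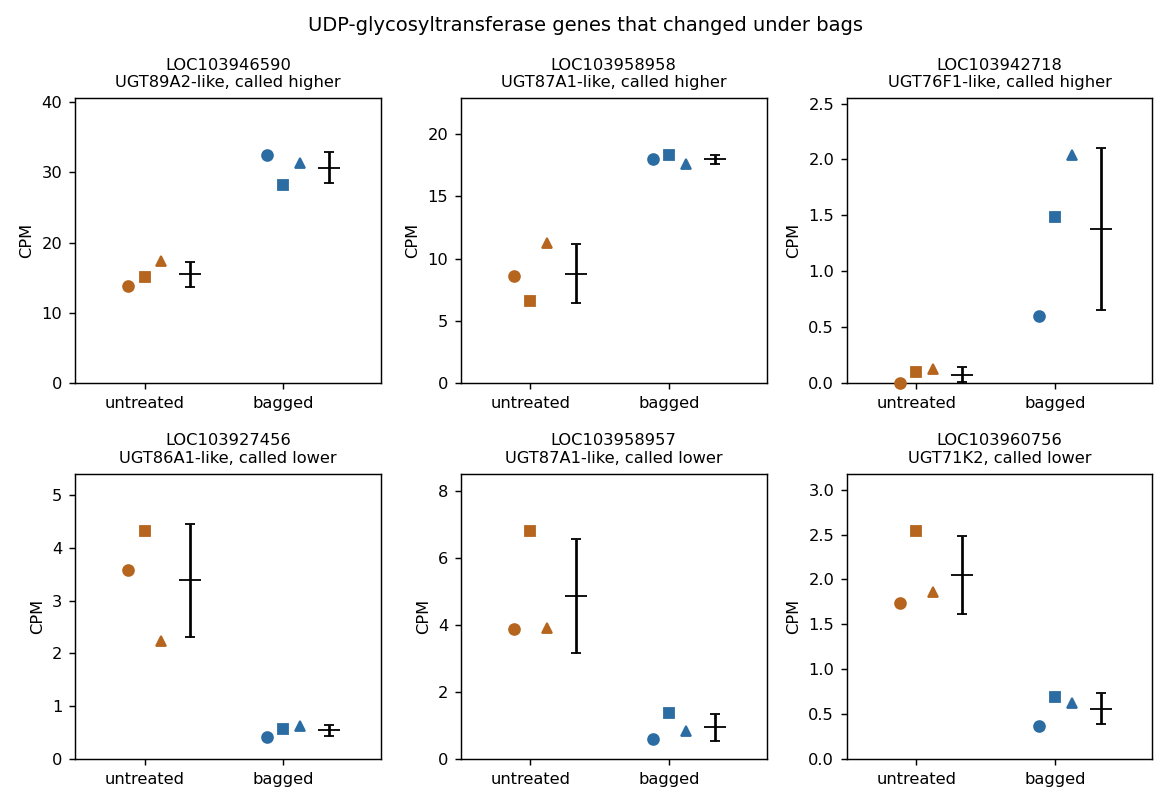
CPM (y axis, from 0) of the 6 genes that passed the test, in untreated (orange) and bagged (blue) skin, 1 point per library (circle, square and triangle for replicates 1, 2 and 3) with the mean and SD of each group as a bar. In all 6 panels the groups do not overlap, and LOC103942718 lies between 0 and 0.124 CPM in untreated libraries.

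UGT88F enzymes make phlorizin from phloretin in apple and pear. Just above the threshold lay LOC103967781, a UGT88F4-like gene with 76, 134 and 69 reads in untreated and 3, 3 and 24 in bagged replicates 1 to 3. On the log2 scale the difference was -3.22 ± 0.66 (adjusted p = 0.0517, edgeR). The filter on low counts was met by 3 untreated and 1 bagged library. The gene was thus tested through the untreated group, and a difference of some size was built into that. Bagged replicate 3 was the highest of the bagged libraries, and without it the gene fell by 4.82 and passed (adjusted p = 0.00691). It passed in 8 of the 17 alternatives, among them DESeq2, limma-voom and both fits on FPKM. It missed in the other 9, among them the replicate block (adjusted p = 0.0604), the robust fit (0.0659) and the fits without any 1 library other than bagged replicate 3 (up to 0.145). The authors' deposited table lists it with an adjusted p of 1.36e-05, close to that of the DESeq2 fit (1.34e-05). Its span of 1238622 to 1271601 on scaffold NW_008988049.1 contains 2 further members on the same strand, so the reads of the 3 genes may be mixed. These are the UGT88F4-like LOC103967800 (0.59 ± 0.28) and the UGT88F3-like LOC103967813 (0.15 ± 0.36), and neither passed. The UGT88F3 gene LOC103952554 had 20, 9 and 14 reads in untreated and 7, 10 and 18 in bagged libraries.

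The next genes outside the threshold were LOC103940915, a UGT91C1-like gene and the 1 transcribed pseudogene among the 104, with 40, 39 and 35 against 57, 67 and 78 reads (0.81 ± 0.21, adjusted p = 0.108, edgeR), then the UGT86A1-like LOC103965475 and the UGT87A1-like LOC103958954 described above. Just inside it were LOC103960756, LOC103942718 and LOC103958958. The authors' deposited table gives an adjusted p below 0.05 to 7 members, with 3 higher and 4 lower in bagged skin, beside 4.72% of all genes it lists with a value. DESeq2 called the same 7, beside 5.42% of all genes. They are the 6 genes called here and LOC103967781. For these genes the deposited log2 fold changes are nearly those of the DESeq2 fit. Both give 4.20 for LOC103942718 and -3.24 for LOC103967781, so the agreement of the lists is not separate evidence.

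Some copies, picked after their values were seen, had few or no reads. Both UGT72E1-like genes, whose Arabidopsis relatives glucosylate monolignols and their aldehydes, had no read in any library. The UGT78D2-like gene LOC103956137, named after the Arabidopsis flavonoid 3-O-glucosyltransferase, had 1 read in all. Of 5 UGT79 genes, a family that extends the sugar chain of flavonoids, 3 had no read, 1 had a single read, and LOC103944402 had 2, 4 and 2 reads in untreated and none in bagged libraries. Both UGT85A8-like genes had no read. These are statements on the copies that carry these names, since other copies may be annotated by their acceptor.

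No tested gene of the UGT84, UGT74 and UGT92 families passed. The UGT84B2-like gene LOC103957284, of a family that makes glucose esters of auxin and phenolic acids, had 198, 370 and 236 reads in untreated and 329, 387 and 418 in bagged replicates. Bagged levels were above untreated ones once scaled (0.51 ± 0.18, adjusted p = 0.215, edgeR). The 4 UGT74 genes, relatives of Arabidopsis enzymes for salicylic acid and indole-3-butyric acid, had log2 fold changes from -0.44 to 0.25. The UGT74F2-like LOC103949022, the one with the highest level, had 14.3 ± 6.23 FPKM in untreated and 10.6 ± 2.52 FPKM in bagged skin. The UGT92A1-like genes LOC103942354 and LOC103932073 had log2 fold changes of -0.59 ± 0.23 and -0.89 ± 0.61.

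UGT83A1-like genes formed the largest named type, with 13 copies, and UGT83A1 of rice acts on flavonoids and monolignols and affects grain size. Of these 13, 2 had no read, 6 lay under the filter and 5 were tested, with log2 fold changes from -0.73 to 0.09 and none called. The highest level was that of LOC103955686, at 1.62 ± 0.331 FPKM in untreated and 1.72 ± 0.555 FPKM in bagged skin. LOC103955691 had 11, 9 and 1 reads in untreated and 0, 1 and 0 in bagged libraries, a ratio of 21.8 untreated over bagged with an exact 95% interval of 3.51 to 902 for counting error, and it was not tested. Of 7 UGT91C1-like genes 5 were tested, with log2 fold changes from -1.23 to 0.81, the last that of the pseudogene LOC103940915. LOC103951952, with the highest level there, had 14.6 ± 1.33 and 13.5 ± 1.92 FPKM. The 3 TURAN-like genes, which belong with protein glycosylation, had log2 fold changes from -0.15 to 0.01.

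Many of the genes stood in tandem. With neighbours up to 50 kb apart grouped, 66 of the 104 genes fell into 21 arrays of 2 to 7 genes and 38 stood alone. Of the 22 genes with no read, 10 were in arrays. Among the 6 called genes, LOC103946590, LOC103958957, LOC103958958, LOC103960756 and LOC103927456 lay in arrays, and LOC103942718 did not. In the arrays of the UGT87, UGT71 and UGT89 families, each called gene stood beside tested relatives that did not pass. Reads that fit several near-identical copies could not be traced, since the way such reads were counted is not given in the sources used here.

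Other genes of the pathway were read from text patterns on the descriptions. Of 36 tested glycosyltransferases named by their acceptor, none rose and 2 fell (5.56% called, beside 2.67% of all genes, with 0.971% higher and 1.69% lower). Both carry the name anthocyanidin 3-O-glucosyltransferase. LOC108865453 had 34, 101 and 45 reads in untreated and 5, 11 and 12 in bagged libraries (-2.64 ± 0.47, adjusted p = 0.0338, edgeR), and LOC103951514 had 33, 48 and 32 against 10, 5 and 9 reads (-2.21 ± 0.36, adjusted p = 0.0229). Of 26 enzymes that supply UDP-sugars, 1 rose and 1 fell (7.69%). The UDP-glucuronate 4-epimerase 6 gene LOC103962555 rose from 306 ± 39.9 to 523 ± 41.4 CPM (0.77 ± 0.11), and the sucrose synthase gene LOC103950289, whose enzyme makes UDP-glucose from sucrose, fell from 62.3 ± 10.7 to 28.3 ± 7.92 CPM (-1.14 ± 0.21; SD, n = 3). None of 18 nucleotide sugar transporters passed. Summed over all listed genes, CPM was 2885 to 3164 in untreated and 3409 to 3596 in bagged libraries for UDP-sugar supply. It was 362 to 375 and 380 to 429 for the transporters, and 215 to 255 and 235 to 257 for the glycosyltransferases named by acceptor. These sums were not tested.

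Of 48 tested enzymes that make phenolic acceptors, 1 rose and 6 fell (14.6% called, beside 2.67% of all genes), and the median log2 fold change was -0.20. A phenylalanine ammonia-lyase gene, LOC103934948, rose by 1.12 ± 0.19, while 3 genes of 4-coumarate--CoA ligase, 2 leucoanthocyanidin reductase-like genes and 1 flavanone 3-dioxygenase gene fell, with log2 fold changes from -3.80 to -0.98. Of 63 hydrolases found by the pattern for glucosidases, none rose and 4 fell (6.35%), and 40 of the 63 were glucan endo-1,3-beta-glucosidases, which act on wall glucan and not on small glycosides. Of the 4 that fell, 2 were of that kind, and 2 were the beta-glucosidase 12-like genes LOC103967837 (-3.01 ± 0.48) and LOC103967835 (-2.96 ± 0.35). A list meant for acyltransferases of sugar conjugates takes in every serine carboxypeptidase-like gene, a family that also holds peptidases. Of its 24 tested genes 1 rose (4.17%), the serine carboxypeptidase-like 50 gene LOC103931862 (0.54 ± 0.09), and none fell. Summed over all genes of this list, CPM was 886 to 935 in untreated and 1028 to 1046 in bagged libraries. For the enzymes of phenolic acceptors (1741 to 1978 and 1671 to 1952) and the hydrolases (2095 to 2295 and 2232 to 2599) the sums overlapped. These sums were not tested.

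Markers of skin and other tissue moved between the groups as follows. Of 17 tested suberin genes, the markers of corky skin, 12 were lower in bagged skin and none higher (70.6% called, beside 2.67% of all genes), with a summed level of 416 to 654 CPM in untreated and 128 to 175 CPM in bagged libraries. This list also takes in cutin-type acyltransferase genes. Of 20 epidermis and cuticle genes 3 were higher and 1 lower (430 to 485 CPM in untreated, 532 to 1011 in bagged). Of 4 tested genes of xylem and stone cell walls 2 were lower (9.11 to 13.9 CPM in untreated, 3.63 to 4.13 in bagged), and 10 of the 31 listed, most of them laccase-17-like, had no read. No gene of flesh sugar metabolism (21 tested, 1238 to 1344 CPM in untreated and 1440 to 1528 in bagged), of phloem (7 tested, 48.6 to 118 CPM and 52.4 to 58.0 CPM) or of cytosolic ribosomal proteins (276 tested) passed. The part of these tissues in the changes of the glycosyltransferase genes was not tested.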

How the data were processed

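RNA from pear fruit skin was sequenced in 6 libraries, 3 per group, from NEBNext Ultra libraries per the labels' protocols. The authors deposited 1 table with raw read counts and FPKM per gene and library. HISAT2 was the aligner per the submitters' processing notes, while its version and the read counter, strandedness, build and gene models were not given in the sources used. Scaffold positions are printed as listed by the authors. The table also holds the authors' log2 fold change, p-value and adjusted p-value (test not named). Of these, adjusted p-values and some log2 fold changes are quoted. Its group means, deposited as a scaled signal, were not used.

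Counts were analysed with edgeR 4.0.16 (R 4.3.3) by the quasi-likelihood test with TMM factors, no covariate and filterByExpr (minimum count 10, minimum total 15), adjusted after Benjamini-Hochberg over all genes tested. Each SE was taken from the F statistic, as |log2 fold change| / √F. The test was also run on simulated counts that took their spread from the trend fitted to these data. These counts held no spread particular to a gene or library, so they cannot vouch for single calls. The filter needs 3 libraries over its level, so 1 group can carry a gene through it. In 8 of the 60 tested members, fewer than 2 libraries of 1 group lay over that level. Named members were those called, the 6 with the highest mean FPKM, the highest in each family with at least 4 tested members, and the 4 uncalled members with the lowest adjusted p. Other members named were chosen after their values were seen. The members, lists and tests were chosen with earlier results of these data known. Alternatives were RLE and upper quartile factors, library size alone, no filter, DESeq2 1.42.0, limma-voom, a stricter filter (CPM of 1 or more in 3 libraries), limma 3.58.1 on log2 FPKM with 1 or 0.1 added (genes with 1 FPKM or more in 3 libraries), a robust fit, a replicate block, and each library left out.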

Additional observations from a re-analysis of the deposited data

How the results depend on the processing

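With 1 library left out, 1 to 2 members were called higher and 0 to 2 lower, against 3 and 3 with all 6 libraries, and over all genes 205 to 692 were called against 670. In the other 11 settings 2 to 3 members were called higher and 2 to 4 lower. The 2 higher members under a CPM of at least 1 in 3 libraries, with limma-voom and in both fits on FPKM were those without LOC103942718, which was filtered out or missed the threshold (adjusted p = 0.0574 with limma-voom). DESeq2 called 1538 of all genes. No called member changed sign in any setting that tested it. Since the groups of all 6 did not overlap, these settings could hardly have changed a sign, so this adds no support. LOC103946590 was called in all 17 alternatives, LOC103927456 in 15, LOC103958957 in 13, LOC103958958 in 12, LOC103960756 in 7, and LOC103942718 in 7 of the 14 that tested it. LOC103967781, not called with all 6 libraries, was called in 8.

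Replicate numbers were not used as pairs in the main test. The deviations of same-numbered libraries correlated at -0.044, 0.083 and 0.057, none above 0.1, and untreated replicate 1 correlated best with bagged replicate 2. Such correlations cannot show whether the libraries were paired when sampled or processed. With the replicate block 3 members were higher and 2 lower (LOC103960756 had an adjusted p of 0.0576), and 728 of all genes were called. Of the 44 members not tested 22 had no read, and why was not tested. The median SE of the tested members was 0.24 on the log2 scale, against 0.17 for all genes tested.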
